A study of Mus musculus with 18 samples.

Results

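The 9 genes below belong to retinoic acid metabolism and were followed through gastruloid differentiation: Rdh10, Aldh1a2 and Aldh1a3 (synthesis), Dhrs3 (return of retinal to retinol), Cyp26a1, Cyp26b1 and Cyp26c1 (breakdown), and Crabp1 and Crabp2 (binding). These are known enzymes and carriers, chosen partly on earlier results of these data, above all the day 5 Dox differences. They are 9 of the 55401 gene IDs in each deposited table, found by matching those IDs to symbols of the GENCODE M21 annotation, and 8 of the 9 passed the filter on low counts that left 17795 genes for testing. In control libraries Crabp1 rose 151-fold and Crabp2 54.2-fold from day 3 to day 5, and Aldh1a2 fell 25.1-fold to day 3 and rose 74.3-fold to day 5. In day 5 libraries from doxycycline (Dox) cultures Cyp26b1 was 13.2-fold higher and Crabp1 2.18-fold higher than in controls, while Dhrs3 was 4.5-fold lower and Aldh1a2 3.46-fold lower. Rdh10 and Crabp2 lay within 1.05-fold of their control levels at that day.

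All libraries came from RHKI, a mouse embryonic stem cell line derived from E14Tg2a that carries an HA-Rnaseh1 knock-in switched on by Dox, so the controls carry the knock-in too. RNase H1 cuts the RNA strand of RNA-DNA hybrids (R-loops), and gastruloids are stem cell aggregates grown into structures with early embryonic tissues. Poly(A) RNA was sequenced in 6 groups of 3 libraries: control and Dox, each on day 0 (0 h), on day 3 (72 h) and on day 5 (120 h). Cells were kept in 2i/LIF medium, and those of the Dox groups received 500 ng/ml Dox for 48 h before differentiation; the labels say neither whether Dox was continued nor whether the line is 1 clone. Nothing in the labels says that replicates were separate cultures, so the spread behind each p-value may be technical.

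Libraries held 25748897 to 38128366 counts. Rnaseh1, the targeted gene, was at 137 to 172 counts-per-million units (CPM) in day 0 Dox libraries against 25.8 to 30.3 in controls, and at 66.1 to 70.2 against 22.2 to 24.1 at day 3. At day 5 it was at 53.7 to 60.4 against 19.3 to 20.1, so every Dox library lay above every control of its day. The summed level of 8 naive pluripotency markers was 3021 to 3406 CPM at day 0 and 9.39 to 13.9 at day 5. In day 0 Dox replicate 2 an rRNA gene held 4.76% of the counts, against 0.144 to 0.483% elsewhere.

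Retinoic acid is a small signalling molecule made from vitamin A. RDH10 oxidises retinol to retinal, DHRS3 reduces retinal back to retinol, and the ALDH1A enzymes oxidise retinal irreversibly to retinoic acid. CYP26 enzymes inactivate retinoic acid by hydroxylation, and CRABP1 and CRABP2 carry it in the cell. In the vertebrate embryo Aldh1a2 in the trunk mesoderm makes the retinoic acid that patterns the hindbrain and spinal cord, while Cyp26 genes keep the tail tip and parts of the head low in it. Retinoic acid acts through RAR and RXR receptors, and Cyp26a1, Dhrs3, Crabp2, Rarb and several Hox genes are known response genes.

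Levels in CPM were scaled by TMM factors, a correction for library composition. A fold is a ratio of group mean CPM with n = 3 per group, and log2 fold changes with their standard errors (SE) come from edgeR's quasi-likelihood fit of all 18 libraries. A gene was called when its p, Benjamini-Hochberg adjusted over the 17795 genes, was under 0.05. Since the genes were chosen with the day 5 Dox result in view, their day 5 Dox values are descriptions without a test. Intervals and threshold calls given for them at that day do not allow for this choice and are descriptions too.

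**Figure D1:**
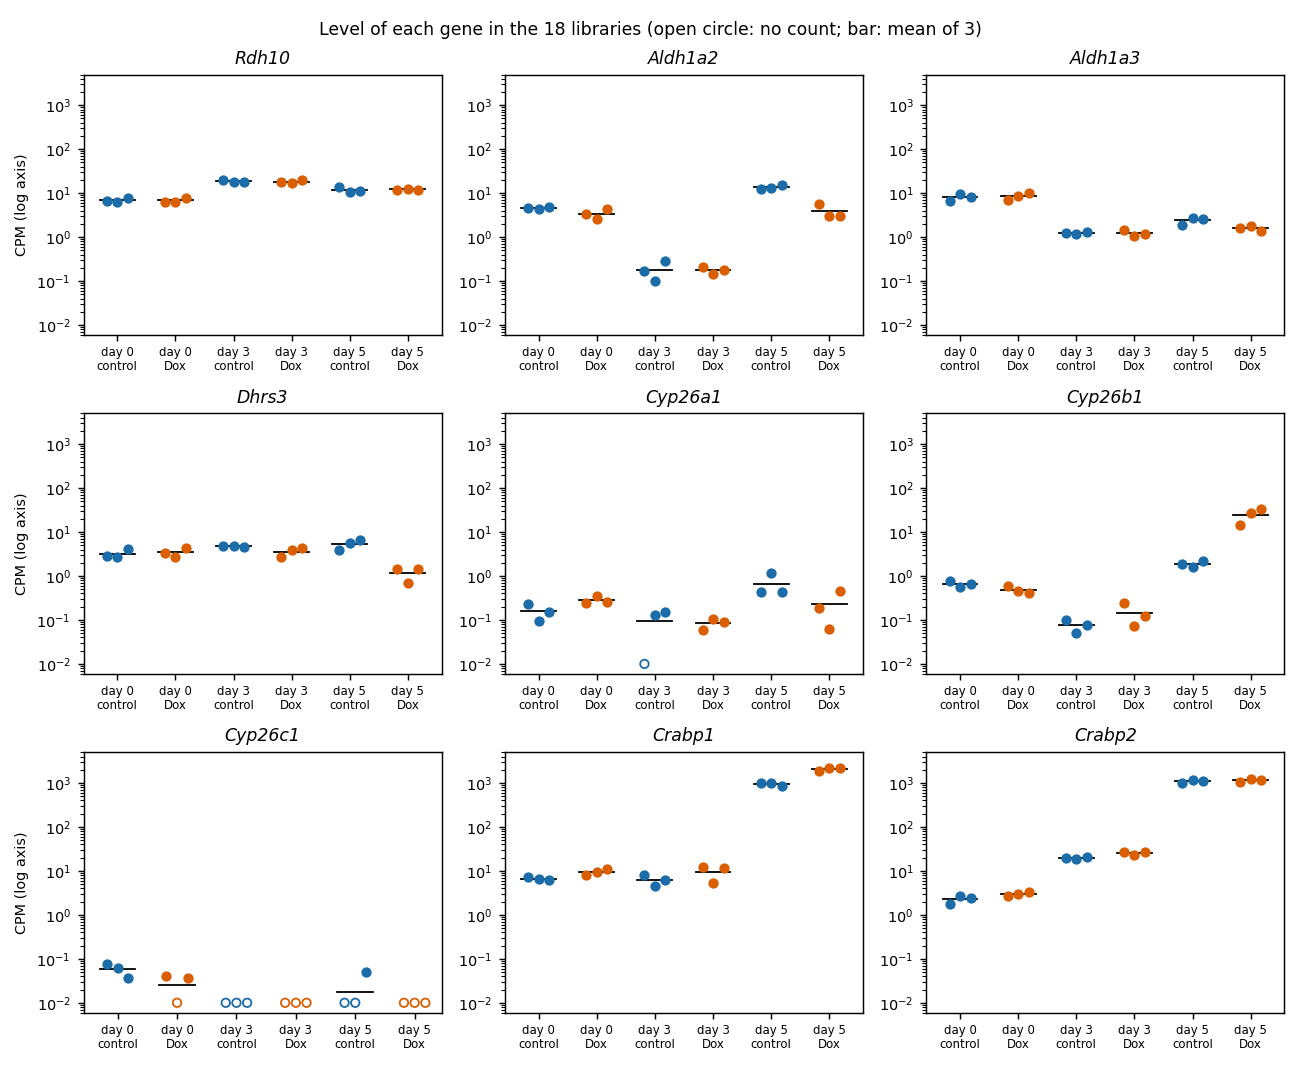
Counts-per-million levels of the 9 genes in the 18 libraries on a log axis, with control libraries in blue, Dox libraries in orange, the mean of 3 as a bar and libraries without a count as open circles. Crabp1 and Crabp2 lie between 838 and 2190.4 at day 5, and the 3 day 5 Dox libraries stand above all others for Cyp26b1 and below all others for Dhrs3.

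Of the synthesis genes, Rdh10 (chromosome 1, 16105774 to 16133734, plus strand, GRCm38; ENSMUSG00000025921) encodes the retinol dehydrogenase of the first step. Control libraries had 6.74, 6.42 and 7.86 CPM at day 0, 20.0, 18.2 and 17.6 at day 3, and 13.9, 10.5 and 11 at day 5. The 3 days did not overlap, with day 3 the highest. Rdh10 rose 2.65-fold from day 0 to day 3 (log2 1.41, SE 0.12, adjusted p = 2.9e-09) and fell 1.57-fold from day 3 to day 5 (log2 -0.66, SE 0.11, adjusted p = 4.7e-05). Dox libraries had 6.30, 6.43 and 7.95 CPM at day 0, 17.9, 17.4 and 19.5 at day 3, and 12.0, 12.3 and 12.1 at day 5. They overlapped the controls at each day. The 95% interval of the log2 difference, Dox minus control, ran from -0.28 to 0.24 at day 0, from -0.26 to 0.21 at day 3 and from -0.20 to 0.28 at day 5.

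Aldh1a2 (chromosome 9, 71215789 to 71296243, plus strand; ENSMUSG00000013584) encodes the main retinoic acid-producing enzyme of the early trunk. Control libraries had 4.68, 4.36 and 4.75 CPM at day 0, then 0.166, 0.103 and 0.282 at day 3 (5, 4 and 11 counts), then 12.5, 12.9 and 15.5 at day 5. Day 3 libraries were therefore close to the floor of 3 counts, which was 0.0768 to 0.124 CPM over the libraries. Aldh1a2 fell 25.1-fold to day 3 (log2 -4.61, SE 0.34, adjusted p = 5.6e-10) and rose 74.3-fold to day 5 (log2 6.18, SE 0.33, adjusted p = 5.8e-12). Dox libraries had 3.28, 2.53 and 4.38 CPM at day 0 and 0.208, 0.143 and 0.180 at day 3. They overlapped the controls at both days, and neither difference passed (adjusted p = 0.50 and 1).

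At day 5 the Dox libraries had 5.78, 3.02 and 3.03 CPM of Aldh1a2, all below the controls. The mean was 3.94 ± 1.6 against 13.6 ± 1.6 (SD, n = 3), a log2 difference of -1.79 with a 95% interval from -2.26 to -1.32. Within replicate numbers the Dox library was 2.16-fold, 4.28-fold and 5.11-fold lower than the control of the same number. Replicate 1 had the smallest difference. The day 5 Dox level overlapped that of the undifferentiated cells.

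Aldh1a3 (chromosome 7, 66390890 to 66427517, minus strand; ENSMUSG00000015134) encodes a second retinal dehydrogenase, known from the eye and nasal region. Control libraries had 6.47, 9.50 and 8.27 CPM at day 0, 1.26, 1.18 and 1.33 at day 3, and 1.93, 2.72 and 2.57 at day 5. It fell 6.42-fold to day 3 (log2 -2.68, SE 0.19, adjusted p = 2.2e-10) and rose 1.92-fold to day 5 (log2 0.94, SE 0.20, adjusted p = 0.00039), and the day 5 libraries stayed below all those of day 0. The size of the first change depended on the unit, since the ratio of mean TPM (transcripts-per-million, which divides by transcript length) gave a log2 difference of -1.87. The transcript length that the deposited tables assign to Aldh1a3, an average weighted by isoform, was 1892 to 2621 bases in day 0 libraries and 1453 to 1594 at days 3 and 5. Dox libraries had 7.13, 8.46 and 9.92 CPM at day 0 and 1.43, 1.03 and 1.2 at day 3, overlapping the controls. At day 5 they had 1.64, 1.80 and 1.41 CPM, all below the controls. The difference was 1.49-fold and was not past the threshold.

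Dhrs3 (chromosome 4, 144892827 to 144928209, plus strand; ENSMUSG00000066026) encodes the reductase that opposes RDH10. Control libraries had 2.92, 2.68 and 4.04 CPM at day 0, 4.71, 4.93 and 4.56 at day 3, and 3.83, 5.70 and 6.69 at day 5. Day 3 libraries were all above day 0, by 1.47-fold, but the change narrowly missed the threshold (log2 0.56, SE 0.25, adjusted p = 0.0501). With the replicate number as a block it passed (adjusted p = 0.018). Days 3 and 5 overlapped (log2 0.20, SE 0.24, adjusted p = 0.48). Dox libraries had 3.28, 2.73 and 4.30 CPM at day 0, and 2.71, 3.85 and 4.24 at day 3. The day 3 Dox libraries lay below all 3 controls, but the difference did not pass (log2 -0.40, 95% interval -0.91 to 0.12, adjusted p = 1).

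At day 5 the Dox libraries had 1.43, 0.701 and 1.47 CPM of Dhrs3. These were the lowest values of the 18 libraries, below those of undifferentiated cells. The mean was 1.2 ± 0.43 against 5.41 ± 1.5 in controls (SD, n = 3), a log2 difference of -2.17 with a 95% interval from -2.74 to -1.60. Within replicate numbers the difference was 2.68-fold, 8.13-fold and 4.54-fold.

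Per transcript length the 3 breakdown genes were the least abundant of the 9 in controls of days 0 and 5. The stretches before the starts of Cyp26a1 and Cyp26b1 are shown because Cyp26a1 is a known response gene and Cyp26b1 had the largest day 5 Dox difference among the 8 tested genes. The windows are RefSeq's on GRCm38.p6, with 250 bases before each RefSeq start, on the gene's strand, and capitals mark the matches named below. These starts lie inside the GENCODE M21 bounds given for both genes, so the last bases of each printed stretch fall within those bounds.
Cyp26a1, chr19:37697558-37697807, plus strand: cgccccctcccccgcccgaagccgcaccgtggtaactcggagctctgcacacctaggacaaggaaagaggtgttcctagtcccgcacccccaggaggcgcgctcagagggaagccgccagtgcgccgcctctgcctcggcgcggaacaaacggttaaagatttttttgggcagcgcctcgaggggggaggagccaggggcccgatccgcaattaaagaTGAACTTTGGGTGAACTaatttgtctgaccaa
Cyp26b1, chr6:84593811-84594060, minus strand: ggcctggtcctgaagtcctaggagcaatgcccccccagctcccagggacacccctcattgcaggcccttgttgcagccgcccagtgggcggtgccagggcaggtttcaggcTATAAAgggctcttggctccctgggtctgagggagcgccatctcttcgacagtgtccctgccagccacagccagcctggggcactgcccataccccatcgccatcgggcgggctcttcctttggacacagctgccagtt
The capitals in Cyp26a1 are a DR5, a pair of 6-base cores in the same direction with 5 bases between them, the arrangement best known for RAR-RXR binding. It lay 16 to 32 bases before the RefSeq start. A core was AGGTCA or the variant AGTTCA or the variant GGGTCA or the variant GGTTCA, searched on both strands of windows of 300 bases that run to 50 bases after the start. The capitals in Cyp26b1 are TATAAA, which the searched window of Cyp26a1 also holds, 30 to 35 bases after the start and so outside the stretch printed.

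A DR5 was found in 32 of 32851 RefSeq promoter windows (0.0974%). Windows were matched for 6 of the 9 genes (8 windows), and Cyp26a1 was the only 1 of them with a DR5. No DR1 or DR2, the same cores with 1 or 2 bases between them, was found in the 8 windows, against 0.222% and 0.268% of all windows. TATAAA is common, with 13.6% of windows. Among 28 known response genes 15 had a window, and 1 of these, that of the receptor gene Rarb, held a DR5. The 2 sites are shown 5′ to 3′ along the cores, which are in capitals and run against the gene in Cyp26a1 and with the gene in Rarb.
Cyp26a1, chr19:37697776-37697792, minus strand: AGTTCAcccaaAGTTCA
Rarb, chr14:16575513-16575529, minus strand: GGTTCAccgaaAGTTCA
A match says only that these letters are in the window.

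Cyp26a1 (chromosome 19, 37697798 to 37701536, plus strand; ENSMUSG00000024987) encodes the enzyme known for clearing retinoic acid in the tail bud, and was low throughout. Control libraries had 0.234, 0.0935 and 0.150 CPM at day 0, 0, 0.128 and 0.154 at day 3, and 0.440, 1.14 and 0.437 at day 5 (13, 36 and 17 counts). Days 0 and 3 overlapped (adjusted p = 0.51), and the gene rose 7.16-fold from day 3 to day 5 (log2 2.69, SE 0.65, adjusted p = 0.0013). Day 5 replicate 2 was the highest library, and without it the log2 change was 2.09. Dox libraries had 0.249, 0.351 and 0.255 CPM at day 0, all above the controls, and 0.0595, 0.107 and 0.0902 at day 3, where the groups overlapped. Neither difference passed (adjusted p = 0.72 and 1). At day 5 they had 0.183, 0.0610 and 0.462 CPM (6, 2 and 16 counts), overlapping the controls. The log2 difference was -1.48 with a 95% interval from -2.68 to -0.27 and was not past the threshold.

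Cyp26b1 (chromosome 6, 84571414 to 84593908, minus strand; ENSMUSG00000063415) encodes the paralogue known from hindbrain segments and limb buds. Control libraries had 0.780, 0.561 and 0.674 CPM at day 0, 0.0996, 0.0514 and 0.0768 at day 3, and 1.83, 1.62 and 2.24 at day 5. The days did not overlap, and day 3 was near the floor. It fell 8.84-fold to day 3 (log2 -3.10, SE 0.56, adjusted p = 6.5e-05) and rose 25-fold to day 5 (log2 4.61, SE 0.46, adjusted p = 5.2e-08). Dox libraries had 0.581, 0.468 and 0.401 CPM at day 0 and 0.238, 0.0713 and 0.120 at day 3, overlapping the controls at both days (adjusted p = 0.74 and 1).

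At day 5 the Dox libraries had 14.4, 27.8 and 32.7 CPM of Cyp26b1 (474, 911 and 1131 counts, against 54, 51 and 87 in controls). All 3 lay above every other library of the series. The mean was 25.0 ± 9.4 against 1.89 ± 0.32 (SD, n = 3), a log2 difference of 3.71 with a 95% interval from 3.18 to 4.23. Within replicate numbers the Dox library was 7.88-fold, 17.2-fold and 14.6-fold higher. Dox replicate 1, the lowest of the group for Cyp26b1, was also the highest for Aldh1a2.

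Cyp26c1 (chromosome 19, 37685581 to 37693398, plus strand; ENSMUSG00000062432), the remaining breakdown enzyme, ends 4.4 kb before Cyp26a1 begins. It had 2, 2 and 1 counts in day 0 controls, 1, 0 and 1 in day 0 Dox libraries, 2 counts in 1 day 5 control library and none in the other 11 libraries. Every library was below the floor of 3 counts, so the gene did not pass the filter and no fold is given.

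Of the binding proteins, Crabp1 (chromosome 9, 54764748 to 54773110, plus strand; ENSMUSG00000032291) is best known as a cytosolic carrier found in neural crest and hindbrain. Control libraries had 7.25, 6.54 and 6.29 CPM at day 0, 7.97, 4.55 and 6.32 at day 3, and 997, 1001 and 838 at day 5. Days 0 and 3 overlapped (adjusted p = 0.71). Crabp1 then rose 151-fold (log2 7.25, SE 0.24, adjusted p = 5.5e-15), the largest rise among the 8 tested genes. Dox libraries had 7.96, 9.55 and 11.3 CPM at day 0, all above the controls, and 12.3, 5.21 and 11.4 at day 3, overlapping them. Neither difference passed: log2 0.53 at day 0 (95% interval 0.02 to 1.04, adjusted p = 0.38) and 0.65 at day 3 (0.16 to 1.14, adjusted p = 1). Without the filter on low counts both passed (adjusted p = 0.00098 and 2.6e-05).

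At day 5 the Dox libraries had 1838, 2190.4 and 2164 CPM of Crabp1, all above the controls. The mean was 2064 ± 196 against 945 ± 93 (SD, n = 3), a log2 difference of 1.13 with a 95% interval from 0.76 to 1.49. Within replicate numbers it was 1.84-fold, 2.19-fold and 2.58-fold higher.

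Crabp2 (chromosome 3, 87948666 to 87953376, plus strand; ENSMUSG00000004885) encodes the carrier that delivers retinoic acid to nuclear receptors. It rose in both intervals, with 1.79, 2.71 and 2.36 CPM in control libraries at day 0, 20.2, 19.1 and 21.3 at day 3 and 1026, 1159 and 1092 at day 5. The rise was 8.82-fold to day 3 (log2 3.12, SE 0.12, adjusted p = 1.6e-14) and 54.2-fold to day 5 (log2 5.76, SE 0.09, adjusted p = 7.2e-19). Dox libraries had 2.65, 3.04 and 3.28 CPM at day 0, overlapping the controls (log2 0.38, 95% interval 0.06 to 0.69, adjusted p = 0.30). At day 3 they had 27.0, 22.9 and 26.3 CPM, all above the controls, a log2 difference of 0.34 (0.16 to 0.51) that did not pass (adjusted p = 1; 0.0097 without the filter on low counts). At day 5 they had 1056, 1203 and 1164 CPM and overlapped the controls. The 95% interval of that log2 difference ran from -0.09 to 0.22.

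Over the control course, 2 of the 8 tested genes rose and 3 fell from day 0 to day 3, where 73.5% of all tested genes were called (37.2% higher, 36.3% lower). From day 3 to day 5, 6 rose and 1 fell, where 64.8% were called (31.7% higher, 33.1% lower). Their median log2 change was -0.36 and then 3.65, against 0.016 and -0.0079 over all genes. The day 3 control libraries enter both intervals. In the Dox comparisons edgeR called none of the 8 at day 0, where 1.04% of all genes were called, and none at day 3, where 0.0169% were. At an unadjusted p under 0.05 there were 2 at each of these days, Crabp1 and Crabp2, and DESeq2 also called none. At day 5, 2 were higher and 2 lower past the threshold, where 4.74% of all genes were called (2.39% higher, 2.34% lower); these genes were chosen with that comparison known, so nothing is read from the count. The groups' libraries did not overlap for 2 of the 8 genes at day 0 (10.2% of all genes), 2 at day 3 (11.1%) and 5 at day 5 (26.1%). The difference in Dox response between days was not tested.

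**Figure D2:**
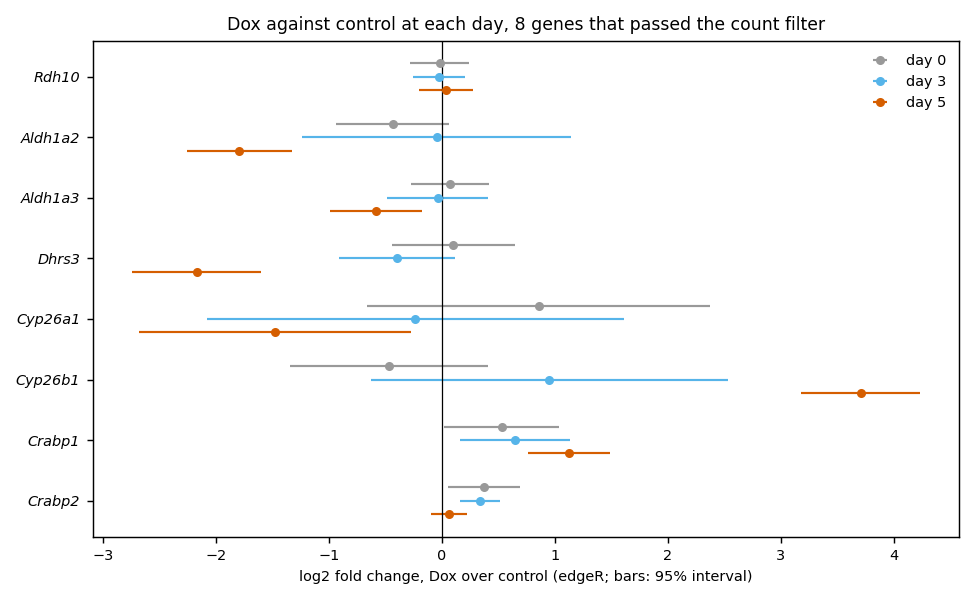
Log2 fold change of Dox over control for the 8 tested genes at day 0 (grey), day 3 (light blue) and day 5 (orange), from edgeR, with 95% intervals as bars. At day 5 Cyp26b1 lies at 3.71, Crabp1 at 1.13, Aldh1a2 at -1.79 and Dhrs3 at -2.17, while Rdh10 and Crabp2 lie near 0 with intervals that include it. The day 5 intervals do not allow for the choice of the genes with that comparison in view.

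Levels of different genes were compared on the deposited TPM, which is per transcript length. In day 5 controls Crabp1 (2250.2 ± 245 TPM, SD, n = 3) and Crabp2 (2160.4 ± 44) overlapped and stood far above Aldh1a2 (9.75 ± 1.2). Dhrs3 (6.17 ± 1.6) and Rdh10 (5.39 ± 0.96) overlapped below it, followed by Aldh1a3 (2.72 ± 0.43). Cyp26b1 (0.683 ± 0.12) and Cyp26a1 (0.647 ± 0.41) overlapped below these, and Cyp26c1 (0.017 ± 0.029), under the floor of 3 counts, was last. In day 5 Dox libraries Crabp1 (4983 ± 387) and Crabp2 (2293 ± 110) no longer overlapped, and Cyp26b1 (9.07 ± 3.4) came next, overlapping Rdh10 (5.55 ± 0.12) and lying above Aldh1a2 (2.87 ± 1.2). At day 0 the order was another: Crabp1 (13.3 ± 1.2) led, and the next 5 genes, Aldh1a3, Crabp2, Dhrs3, Aldh1a2 and Rdh10, each overlapped their neighbour at 2.72 to 4.58 TPM.

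The ratio of summed Cyp26 TPM to summed Aldh1a2 and Aldh1a3 TPM set transcripts of breakdown enzymes against those of synthesis enzymes in each library. It was 0.0956, 0.143 and 0.0888 in day 5 controls and 0.895, 2.39 and 3.27 in day 5 Dox libraries. All other libraries lay between 0.0216 and 0.191, so the 3 day 5 Dox libraries stood apart, and replicate 1 was the only one of them below a ratio of 1. Cyp26b1 made up 61.8, 33.7 and 64.0% of the Cyp26 TPM in day 5 controls and 96.9, 99.4 and 95.6% in Dox libraries. Aldh1a2 made up 80.6, 75.3 and 78.7% of the Aldh1a TPM in day 5 controls and 69.3, 51.4 and 57.5% in Dox libraries. These ratios restate the member levels and carry no test.

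Crabp1 over Crabp2 was 4.74, 2.7 and 3.18 in day 0 controls, 0.472, 0.287 and 0.355 at day 3 and 1.17, 1.04 and 0.921 at day 5. The carrier with more transcript thus changed between day 0 and day 3, and the 2 transcripts were near parity at day 5. Protein was not measured. In day 5 Dox libraries the ratio was 2.09, 2.19 and 2.23. Rdh10 over Dhrs3 was 1.48, 0.727 and 0.647 in day 5 controls and 3.35, 7.53 and 2.96 in Dox libraries, which did not overlap.

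**Figure D3:**
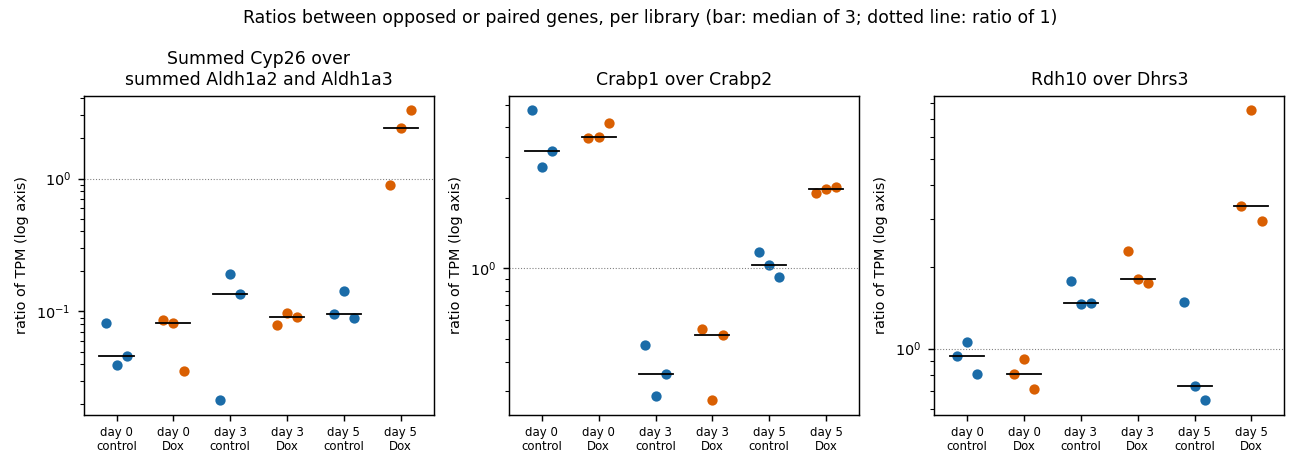
Ratios of TPM per library on log axes, with control libraries in blue, Dox libraries in orange, the median of 3 as a bar and a ratio of 1 as a dotted line: summed Cyp26 over Aldh1a2 and Aldh1a3 (left), Crabp1 over Crabp2 (middle), Rdh10 over Dhrs3 (right). The day 5 Dox libraries reach 0.895 to 3.27 in the left panel, where all other libraries lie at or below 0.191.

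Beyond these genes, 4 lists of the pathway were examined: receptors, other retinoid enzymes and carriers, response genes, and receptor cofactors. Of the 6 receptor genes, 2 rose and 1 fell from day 0 to day 3 in controls, where 73.5% of all tested genes were called. From day 3 to day 5, 4 rose and 2 fell, where 64.8% were called. Rxrg was without a count in all 3 day 0 controls and stood at 17.5 ± 1.8 CPM by day 3, at least 150-fold higher taking 3 counts per library as the floor, and fell 40.5-fold to 0.432 at day 5. Rxra, a common partner of the RARs, rose from 24.2 to 55.5 and then 114 CPM. Rarb, itself a response gene, rose 186-fold from day 3 to day 5 (0.485 to 90.1 CPM, adjusted p = 1.5e-16), while Rarg fell 6.82-fold (96.0 to 14.1 CPM). None was called in Dox at day 0 or day 3, where 1.04% and 0.0169% of all tested genes were called. At day 5, Rarg (8.65 ± 0.53 against 14.1 ± 1.2 CPM) and Rarb (58.2 ± 5.3 against 90.1 ± 2.9) were lower past the threshold and the other 4 were not past it. At that day 4.74% of all tested genes were called (2.39% higher, 2.34% lower).

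Of 29 other retinoid enzymes and carriers, 18 passed the filter. In controls 13 of them rose and 3 fell to day 3, where 73.5% of all tested genes were called. To day 5, 7 rose and 8 fell, where 64.8% were called. Stra6, the retinol uptake receptor, rose from 0.206 to 9.62 and then 19 CPM. Fabp5, a fatty acid carrier that also binds retinoic acid, rose from 13.3 to 41.1 and then 125 CPM, a value that is uncertain because near-identical pseudogenes share its reads. Rdh11, a retinal reductase, rose from 23.1 to 63.7 CPM by day 3, and Aldh1a7, an aldehyde dehydrogenase related to Aldh1a1, rose from 1.07 to 6.86 between days 3 and 5. None of the 18 was called in Dox by edgeR at any day. Over all tested genes 1.04%, 0.0169% and 4.74% were called at days 0, 3 and 5. The median log2 difference of the 18 was 0.087 at day 5, against 0.0034 over all genes.

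All 28 response genes passed the filter. In controls 14 rose and 9 fell to day 3, where 73.5% of all tested genes were called. To day 5, 22 rose and 3 fell, where 64.8% were called, with a median log2 change of 3.04 in this second interval. At day 3 Hoxb1, the first Hox gene of the hindbrain, was at 14.2 ± 0.91 CPM against no count at day 0, at least 122-fold higher. Hoxa3 (0.824 to 5.60 CPM), Zfp703 (2.27 to 14.7) and Zfp503 (0.907 to 5.65) rose in the same interval. At day 5 Hoxd4 (0.144 to 61.1 CPM), Hoxb4 (0.170 to 38.7) and Hoxb5 (1 count in all day 3 controls, then 17.6) had risen.

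In Dox libraries 1 response gene, Cdx1, was lower past the threshold at day 0 and none was called at day 3. Over all tested genes 1.04% and 0.0169% were called at these days. At day 5, 1 was higher and 8 were lower, where 4.74% of all genes were called (2.39% higher, 2.34% lower). The median log2 difference was -0.33, against 0.0034 over all genes. Hoxa5 was 2.14-fold lower (11.1 ± 1.3 against 23.7 ± 1.2 CPM) and Hoxb5 2.08-fold lower (8.48 ± 1.1 against 17.6 ± 0.30). Also lower were Rarb, Hoxb3, Hoxd4, Tshz1 and Skap2. The lists were chosen with these data known, and these counts are descriptions. Of 11 receptor cofactors 2 rose and 5 fell to day 3 in controls, where 73.5% of all tested genes were called. Ncoa3 was 5.77-fold lower (277 to 48.0 CPM), Ncor1 and Ncoa1 were lower and Rere was higher. To day 5, 5 rose and 1, Hdac1, fell, where 64.8% were called. Ncoa3 rose 1.51-fold and Ncoa2 and Hdac2 by less. None of the cofactors was called in Dox at any day, against 1.04%, 0.0169% and 4.74% of all tested genes at days 0, 3 and 5.

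**Figure D4:**
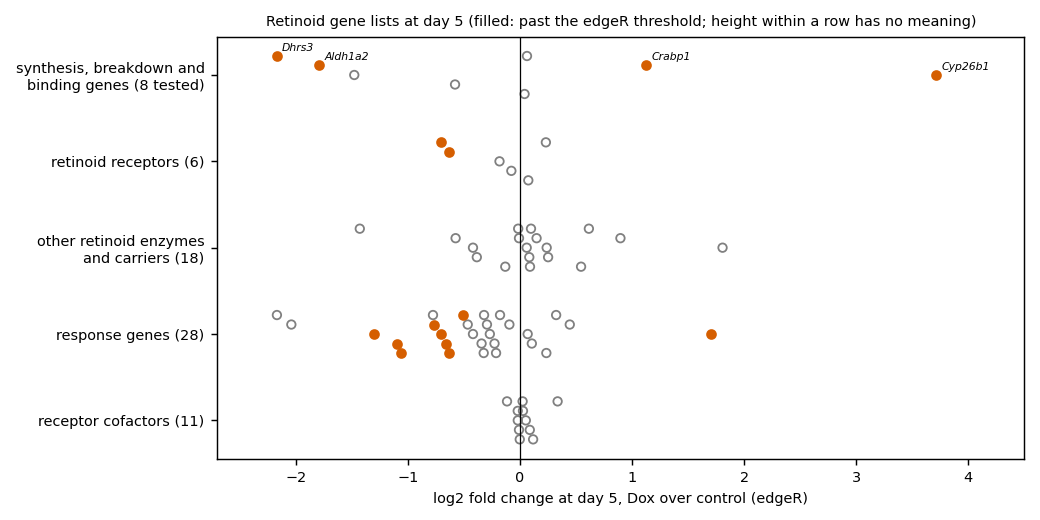
Log2 fold change of Dox over control at day 5 (edgeR) for each tested gene of the 5 groups of retinoid genes, with genes past the threshold filled; the height of a point within its row has no meaning. Filled points lie on both sides of 0 among the 8 synthesis, breakdown and binding genes, 8 of 9 filled response genes lie below 0, and no enzyme, carrier or cofactor outside the 8 is filled.

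Cell type markers moved in the same day 5 libraries, where 4.74% of all tested genes were called in Dox (2.39% higher, 2.34% lower). In bulk RNA, fewer cells of a type and less RNA per cell cannot be told apart. The summed level of 8 somite markers, the tissue known for Aldh1a2, was 108 to 130 CPM in Dox libraries against 135 to 157 in controls. Of the 8, Meox1 (71.5 to 50.5 CPM), Pax1 (4.84 to 0.547), Tbx18 and Foxc2 were lower past the threshold and Pax3 (17.4 to 29.5) was higher. The 6 hindbrain markers, of a tissue known for Cyp26b1, summed to 123 to 135 CPM against 95 to 102, with 3 higher, among them Egr2 (0.232 to 1.44) and Irx2 (50.6 to 67.6), and Gbx2 (19.7 and 17.6) not past it. Neither sum overlapped between the groups, and 26.1% of all tested genes, taken singly, did not overlap either. The part of these shifts in the members' values was not tested.

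Sums of other markers at day 5 were as follows, again where 4.74% of all tested genes were called. Tail bud markers, the tissue known for Cyp26a1, summed to 7.01 to 9.19 CPM in Dox libraries against 14.3 to 16.7 with none of 6 past the threshold, and Cdx4 had no count in controls. The 8 spinal cord progenitor markers summed to 1039 to 1138 CPM against 1169 to 1193, with Pax6, Olig2 and Nkx6-1 lower and the most abundant, Dbx1 (358 and 367 CPM) and Irx3 (253 and 301), not past it. Neural crest markers, a tissue known for Crabp1, summed to 16.9 to 17.3 CPM against 22.4 to 28.4, with Ets1 lower and Tfap2b higher. Most of that sum was Ets1 alone (13.7 against 22.3 CPM), and Foxd3 was near 0.01 CPM in both groups. Presomitic mesoderm markers summed to 126 to 152 CPM against 117 to 123, nearly all of it Dll1, and Msgn1 had no count in either group. Endoderm markers summed to 6.41 to 7.15 CPM against 8.54 to 10.5, with Foxa1 and Foxa2 lower. Streak (3.55 to 4.32 against 5.79 to 7.79 CPM), trophoblast (2.16 to 3.12 against 3.47 to 4.75) and forebrain and eye markers (2.74 to 3.38 against 2.32 to 3.77) were low in both groups. T, in both the streak and tail bud lists (3.88 against 6.61 CPM), made up most of the streak sum. Core pluripotency markers summed to 256 to 273 CPM against 269 to 275, with 1 of 4 higher past the threshold. Naive ones summed to 9.39 to 13.9 against 10.2 to 13.1, with 1 of 8 lower. The part of all these markers in the members' values was not tested either.

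Genes around the members were also examined. Within 100 kb of a member lay 19 tested genes that are no members, among them Exoc6 beside the Cyp26a1 and Cyp26c1 pair, Exoc6b near Cyp26b1, Lrrk1 near Aldh1a3, Vps13d near Dhrs3, Rpl7 near Rdh10, Ireb2 near Crabp1 and Nes near Crabp2. None of the 19 was past the threshold in Dox at day 5, where 4.74% of all genes were, and their median log2 difference was 0.021. In the control course 8 of them rose and 7 fell to day 3, where 73.5% of all tested genes were called. To day 5, 3 rose and 10 fell, where 64.8% were called. Cyp26a1 and Cyp26c1 were the only members that close to each other, and Crabp1 and Aldh1a2 lie 16.4 Mb apart on chromosome 9.

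The genes whose course over the 18 libraries was nearest to each member were found among 14588 genes by the root mean square difference of centred log2 CPM. The libraries share 3 days, which dominate such a measure, so Pearson's r is given as a description. Rdh10 was most closely followed by Entpd6 (0.12, r = 0.98) and Trim21 (0.13, r = 0.98), and Aldh1a3 by Vegfc and Dusp14 (both 0.25, r = 0.98). Crabp2 was nearest to Irx3 (0.41, r = 0.995) and Agtr1a (0.50, r = 0.99), and Crabp1 to Vit (0.45, r = 0.99) and Pantr1 (0.57, r = 0.99). Dhrs3 was nearest to Plk2 (0.47, r = 0.79) and Sec14l5 (0.49, r = 0.81), both of which were also low in day 5 Dox libraries (18.7 against 38.4 CPM and 1.42 against 4.24). Those libraries enter the match, so that likeness is partly built in. Aldh1a2 was nearest to Cpn1 (0.63, r = 0.96) and Pdzd2 (0.65, r = 0.96). In day 5 Dox libraries Cpn1 had 6.31 CPM against 11.4 in controls, and Pdzd2 had 23.0 against 23.5. Cyp26b1 had no near match, with Fezf2 (0.92, r = 0.93) and Sox2ot (0.99, r = 0.92) the nearest, and Cyp26a1 followed Itga3 and Rcsd1 (both 0.66, r = 0.72 and 0.74).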

How the data were processed

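Poly(A) RNA of 18 mouse libraries (6 groups of 3) was prepared with a stranded mRNA kit, per the labels' protocols. Per the submitters' processing notes the build was GRCm38 and the tools included STAR 2.7.10a, RSEM 1.3.3, Trimmomatic and DESeq2 1.38.2, with no role or order; the annotation release and strand setting are not given in the sources used here, so reads of overlapping or antisense genes may not be told apart. The authors deposited an RSEM table per library with expected counts (RSEM's estimate of the reads of each gene) and TPM; the deposited FPKM was left out. Between 6.54 and 7.49% of the deposited expected counts had a fractional part, and each value was rounded. Of 55401 IDs, 55141 were matched to GENCODE M21 symbols without version suffix, and the 260 others held 0.0053% of the counts.

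Counts were fitted in edgeR 4.0.16 (R 4.3.3) with TMM factors of 0.894 to 1.063, filterByExpr (minimum count 10, total 15), and a mean for each group. Residual degrees of freedom were 12, and the common biological coefficient of variation was 0.09. P-values were Benjamini-Hochberg adjusted over 17795 genes. Depth limits genes under the floor of 3 counts per library; the floor covers counting error only. The fit was tested on simulated data.

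The members, the 4 pathway and 12 marker lists and the tests were chosen with earlier results of these data known. Named besides the members and Rnaseh1 were, per pathway list, in both control contrasts and Dox at day 5, up to 4 called genes with the largest changes and at least 5 CPM in the higher group; the 2 genes nearest in course to each member; tested genes within 100 kb; and the 2 most abundant markers of a list. The other called list genes, some further markers and the Plk2, Sec14l5, Cpn1 and Pdzd2 values were picked out after their values were seen, and some genes these rules select are not named here and enter only counts or sums.

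The batch tag in the labels is the replicate number, so samples of the same number may be paired. The main fit left this possible pairing out, so its p-values do not use it. After removal of group means, same-numbered libraries of day 0 correlated across genes with r between 0.206 and 0.331, and differently numbered ones with r between -0.252 and 0.0553. The same ranges were 0.0103 to 0.0365 and -0.0427 to 0.0205 for day 3, then 0.0224 to 0.0506 and -0.0565 to 0.0202 for day 5. Alternatives were the replicate block, DESeq2 1.42.0, RLE factors, scaling by library size alone, no filter on low counts, a filter of 1 CPM in 3 libraries, the contrast's groups alone, a log2 change of at least 1, mean TPM ratios and leaving out each library.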

Additional observations from a re-analysis of the deposited data

How the results depend on the processing

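Over 40 member values and 550 alternatives, 524 kept the call and, but for 4 values near 0 given below, the direction. The counts of members called moved by more than 1.5 times only without the filter, to 1 at day 0 Dox (Crabp1) and 2 at day 3 Dox (Crabp1 and Crabp2). With the replicate block the call of Dhrs3 at control day 3 against day 0 was gained (log2 0.58, adjusted p = 0.018) and no other member call changed. Dhrs3 also passed without the filter, under the 1 CPM filter, with library size alone, with the contrast's groups alone and without day 0 control replicate 3 (adjusted p 0.011 to 0.0499). Directions turned only among uncalled values. Crabp1 at control day 3 against day 0 was 0.043 with library size alone, and leaving out a library gave -0.30 to 0.088. Leaving out a library gave, for Dox at day 0, -0.063 to 0.21 (Aldh1a3), -0.095 to 0.30 (Dhrs3) and -0.14 to 0.072 (Rdh10). For Dox at day 3 it gave -0.36 to 0.44 (Aldh1a2), -0.16 to 0.065 (Aldh1a3), -0.72 to 0.24 (Cyp26a1) and -0.075 to 0.022 (Rdh10), and for Rdh10 at day 5 -0.034 to 0.17, below 0 without control replicate 2 or 3. The ratio of mean TPM, which carries no test, was 0.059 for Crabp1 at control day 3 against day 0 and 0.035 for Rdh10 in Dox at day 0. The cause was not tested. Library size alone raised the median log2 change of all genes at control day 3 against day 0 from 0.016 to 0.16. Over all genes, Dox calls were 185, 3 and 843 at days 0, 3 and 5; they were 313, 4 and 1065 with the block, 504, 6 and 1273 with DESeq2, 549, 25 and 1157 without the filter, and 3, 12 and 1628 with the contrast's groups alone. Without 1 library they were 76 to 412, 2 to 3 and 410 to 732. Genes near the floor of 3 counts, Aldh1a2 and Cyp26b1 at day 3 and Cyp26a1 throughout, have the widest intervals.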
